A study of Mus musculus with 21 samples.

Results

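Gap junction channels are built from connexins, and 6 connexin genes are described here in mouse aortic valves: Gja4, Gja5, Gja1, Gjc1, Gjb2 and Gjb6. They are 6 of the 20872 genes listed in the deposited expression table, and each was found there by its symbol. The set was chosen by the level of Gja4, which is higher in the healthy Notch1-haploinsufficient valves than in the wild-type valves, so the values of those 2 groups selected it and are given below as a description without a test. The other 5 genes joined it as members of the same family.

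Connexins are membrane proteins that assemble into hexagonal half-channels, and half-channels of neighbouring cells dock to form a pore that passes ions and small molecules directly between cytoplasms. Gja4 and Gja5 encode the connexins typical of arterial endothelium, Gja1 the most widely expressed connexin, Gjc1 one known from the conduction system and vascular mural cells, and Gjb2 and Gjb6 connexins best known from epithelia and the inner ear. Connexins of different cell layers let endothelial, mural and stromal cells exchange signals, and Notch signalling is one of the pathways known to set arterial endothelial identity, including connexin expression.

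All mice were generation 2 Terc-/-, the second generation without the telomerase RNA gene. The 5 groups were wild-type mice (N1+/+) with healthy valves given solvent (called WT below, n = 4), N1+/- mice with healthy valves given solvent (N1het healthy, n = 6), N1+/- mice with healthy valves given XCT790 (N1het healthy XCT790, n = 5), N1+/- mice with valve stenosis given solvent (N1het stenosis, n = 3) and N1+/- mice with stenosis given XCT790 (N1het stenosis XCT790, n = 3). XCT790, an inverse agonist of the orphan nuclear receptor ERR alpha, or solvent was injected into the peritoneum each day for 4 weeks from 4 weeks of age, the compound at 5 mg/kg per day. Groups follow the sample titles. In 6 of the 21 libraries the agent label contradicts the title: replicates 1, 2 and 3 of N1het healthy XCT790 carry the solvent label and all 3 N1het stenosis libraries carry the XCT790 label. The sample descriptions and the column names of the deposited values follow the titles in all 6. Results by title are given also by agent label or without those libraries for Gja4 and Gjb2 in XCT790 mice. N1het stenosis as a solvent group rests on the titles, descriptions and column names, against the agent label. Nothing in the labels ties each library to its own animal, so p-values measure the spread between libraries, which may be partly technical.

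Values are FPKM, fragment counts scaled to transcript length and library size, so that levels can be compared between genes. The reads recovered from the values ran from 8417033 to 27265905 per library, with a median of 13655842. The 6 deepest libraries, called the deep set below, belong to 4 groups and none is an N1het stenosis library. Interstitial and fibroblast markers, the defining genes of valve stroma, summed to 6597 FPKM or more in every library with all 12 genes above 0. Notch1 itself lay between 26.6 and 46.5 FPKM in WT and between 19.4 and 50.03 FPKM in the 17 N1+/- libraries. Its fitted log2 difference between N1het healthy and WT was 0.06 ± 0.25 (SE), 95% interval -0.45 to 0.58, adjusted p = 0.972 by limma. The summed level of Notch1 therefore does not separate the genotypes. The labels do not say what the altered allele still transcribes, so the level is a weak check, and group names below are those of the labels.

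The promoter windows of Gja4 and Gja5 are shown because these arterial endothelial partners differed in their values, Gja4 being higher and Gja5 not higher in N1+/- valves. Each window runs from 250 bases before to 50 bases after the RefSeq gene start, on the coding strand, 5′ to 3′, in build GRCm38.p6 (the expression values rest on mm9). Gja4 lies at chr4:127313990-127314289 on the minus strand, and Gja5 at chr3:97032152-97032451 on the plus strand. Capitals mark the GC box GGGCGG, searched on both strands.
Gja4: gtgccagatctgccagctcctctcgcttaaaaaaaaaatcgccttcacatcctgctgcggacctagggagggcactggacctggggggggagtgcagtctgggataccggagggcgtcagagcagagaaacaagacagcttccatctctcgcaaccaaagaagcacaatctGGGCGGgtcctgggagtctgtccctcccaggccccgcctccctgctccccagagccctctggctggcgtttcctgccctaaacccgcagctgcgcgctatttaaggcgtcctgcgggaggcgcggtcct
Gja5: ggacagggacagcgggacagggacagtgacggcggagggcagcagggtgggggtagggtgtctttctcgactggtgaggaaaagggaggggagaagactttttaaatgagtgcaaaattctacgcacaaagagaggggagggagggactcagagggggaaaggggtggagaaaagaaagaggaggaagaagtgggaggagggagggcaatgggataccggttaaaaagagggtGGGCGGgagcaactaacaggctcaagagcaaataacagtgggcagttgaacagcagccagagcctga
Each window held 1 GC box, whose first base lies 79 bases before the start in Gja4 and 17 bases before it in Gja5. The first bases after the start were found in a transcript of the GENCODE annotation for Gja4 but in none for Gja5. The Gja5 start, and the distance from it, thus rest on RefSeq alone. A GC box occurred in 35.7% of the 32851 RefSeq windows of this length. The RBPJ core TGGGAA, the letters bound by the DNA-binding partner of Notch, occurred in 25.6% of all windows and in neither of these. The ERR core AAGGTCA, found in 4.72% of windows, and the E-box CACGTG, found in 7.15%, were not in these windows either. The windows of Gja1, Gjb2 and Gjb6 held none of those 3 motifs, and Gjb2 held 2 GC boxes. No window was found for Gjc1. A missing match says only that these letters are not in this window.

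Gja4 was low in WT valves and several times higher in most N1+/- valves. The WT libraries read 7.91, 11.9, 16.7 and 9.73 FPKM, a mean of 11.6 ± 3.82 (SD, n = 4) from 138 to 287 reads. The N1het healthy libraries had a lowest value of 38.4, a median of 45.7 and a highest of 98.9 FPKM, a mean of 53.4 ± 22.5 (SD, n = 6) from 706 to 1975 reads. All 6 lay above the highest WT library, and the ratio of the means was 4.62. How many of all genes separate these groups in this way was not counted. The fitted difference on the log2(FPKM + 1) scale was 2.08 ± 0.43 (SE), with a 95% interval of 1.19 to 2.98. As this contrast chose the gene, no p is given. In the fit over all 14966 genes whose mean reached 1 FPKM, limma called 0% of genes in this contrast at an adjusted p under 0.05, and 1111 genes had an unadjusted p under 0.05. In the authors' deposited table, Gja4 is marked as changed between N1het healthy and WT, 1 of 139 genes so marked. It is not marked there in the other 4 comparisons, N1het stenosis against WT with its 281 marked genes included, and the other 5 members are marked in none.

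**Figure D1:**
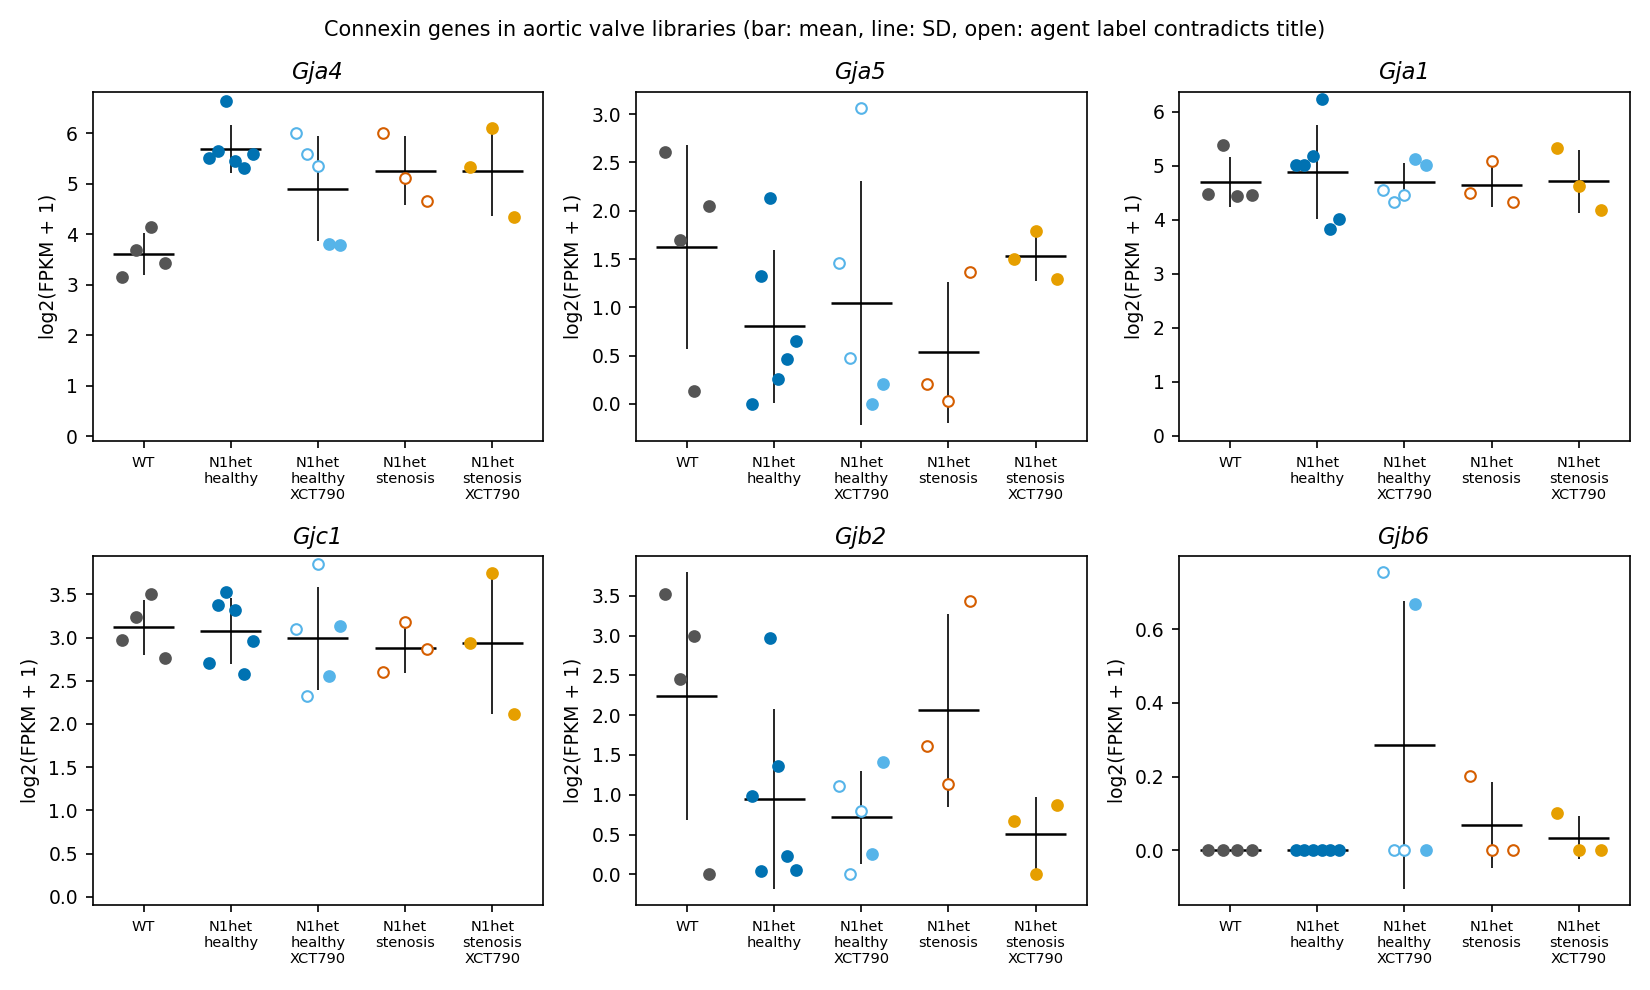
FPKM of the 6 connexin genes in each library, as log2(FPKM + 1) on the vertical axis with a scale of its own in each panel, by group on the horizontal axis. Points are libraries, horizontal bars means and vertical lines SD, and open points mark libraries whose agent label contradicts the title. All 6 N1het healthy points for Gja4 lie above all 4 WT points, while the groups overlap in the panels of Gja5, Gja1, Gjc1 and Gjb2. The Gja4 separation lies in the values that chose the gene, and the share of all genes so separated was not counted.

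The size of the Gja4 difference between N1het healthy and WT lay between 1.88 and 2.48 on the log2 scale in the 36 other ways of processing that gave a value, as a description of the values that chose the gene. It was 2.16 with the endothelial marker level as a covariate, 2.48 with the levels of heart muscle and of smooth muscle markers in the fit, and 2.04 in the 15 libraries outside the deep set. Leaving out the highest library, N1het healthy 3 at 98.9 FPKM, or any other single library gave values from 1.89 to 2.27.

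The stenotic valves were also above WT in Gja4, by values that carry no test. The N1het stenosis libraries read 63.6, 33.5 and 24.3 FPKM, and the N1het stenosis XCT790 libraries 39.4, 68.1 and 19.1 FPKM. All 6 stenotic libraries lay above the highest WT library, and the share of all genes so separated was not counted. Against WT, limma called 0.0334% (N1het stenosis) and 0% (N1het stenosis XCT790) of all genes. The group means fell in the order N1het healthy (53.4), N1het stenosis XCT790 (42.2 ± 24.6), N1het stenosis (40.5 ± 20.6), N1het healthy XCT790 (35.1) and WT (11.6 FPKM), and the first 4 differed from their neighbours by less than their SDs. The fitted differences from WT were 1.66 ± 0.51 and 1.65 ± 0.51 (SE) on the log2(FPKM + 1) scale. Both use the WT libraries that chose the gene and share them with each other, so they carry no test and are not independent of the first contrast. Between N1het stenosis and N1het healthy the fitted difference was -0.43 ± 0.47 (SE), also without a test, -0.81 without N1het stenosis replicate 1 and -0.13 without replicate 3 of that group, and 1 N1het stenosis library lay inside the range of N1het healthy.

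A difference of Gja4 with XCT790 in stenotic valves was not resolved by these 3 libraries a group. The fitted difference between N1het stenosis XCT790 and N1het stenosis was -0.0015 ± 0.55 (SE) on the log2(FPKM + 1) scale, with a 95% interval of -1.14 to 1.13 (limma, adjusted p = 1). The interval spans more than a doubling in either direction. By the agent label all 6 stenotic libraries had received XCT790, and the comparison could then not be made. Among XCT790 mice by title, stenotic valves were 0.36 ± 0.49 (SE) above healthy valves, adjusted p = 0.990 by limma. These are the comparisons in which Gja4 could be tested, since neither uses a library that chose it.

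Within N1het healthy XCT790, Gja4 lay at separate levels that match the agent label. Replicates 1, 2 and 3, whose agent label is solvent, read 62.8, 46.8 and 40.1 FPKM. Replicates 4 and 5, whose agent label is XCT790, read 12.9 and 12.7 FPKM. The first 3 lay within the range of N1het healthy, and the other 2 within the range of WT. How many of all genes split these libraries in the same way was not counted. The group mean was 35.1 ± 21.9 FPKM (SD, n = 5). By title, the fitted log2 difference from N1het healthy was -0.79 ± 0.41 (SE) and from WT 1.30 ± 0.45 (SE). By agent label, with replicates 4 and 5 alone as treated healthy valves, these differences were -1.89 and 0.18, and without the 6 contradicting libraries -1.90 and 0.18. By title, the second was 0.56 in the libraries outside the deep set. All of these use groups that chose the gene and are given without a test.

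Grouped by the agent label, one comparison of Gja4 used no library that chose it: 6 stenotic libraries against replicates 4 and 5. The stenotic libraries were higher by 1.47 ± 0.40 (SE) on the log2 scale, with an adjusted p of 0.346 by limma, which does not pass 0.05. All 6 stenotic values exceeded both healthy ones, the lowest being 19.1 FPKM, and the share of all genes so separated was not counted. Replicates 4 and 5 also had the highest macrophage marker levels of the group, with mean log2(FPKM + 1) of 6.79 and 6.95 against 5.51 to 6.25 in replicates 1, 2 and 3. Their endothelial marker levels, 4.00 and 4.72, lay on either side of the 4.23 to 4.54 of the other 3. Heart muscle marker levels were 3.31 and 5.90 in replicates 4 and 5 against 1.35 to 2.57 in the others, and melanocyte and glial levels 4.72 and 4.28 against 2.84 to 4.199. Mitochondrial genes took 2.70% and 2.77% of their reads against 0.058% to 1.58%, and replicates 1 and 2 belong to the deep set. The part of cell makeup, depth or mitochondrial share in the difference was not tested.

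**Figure D2:**
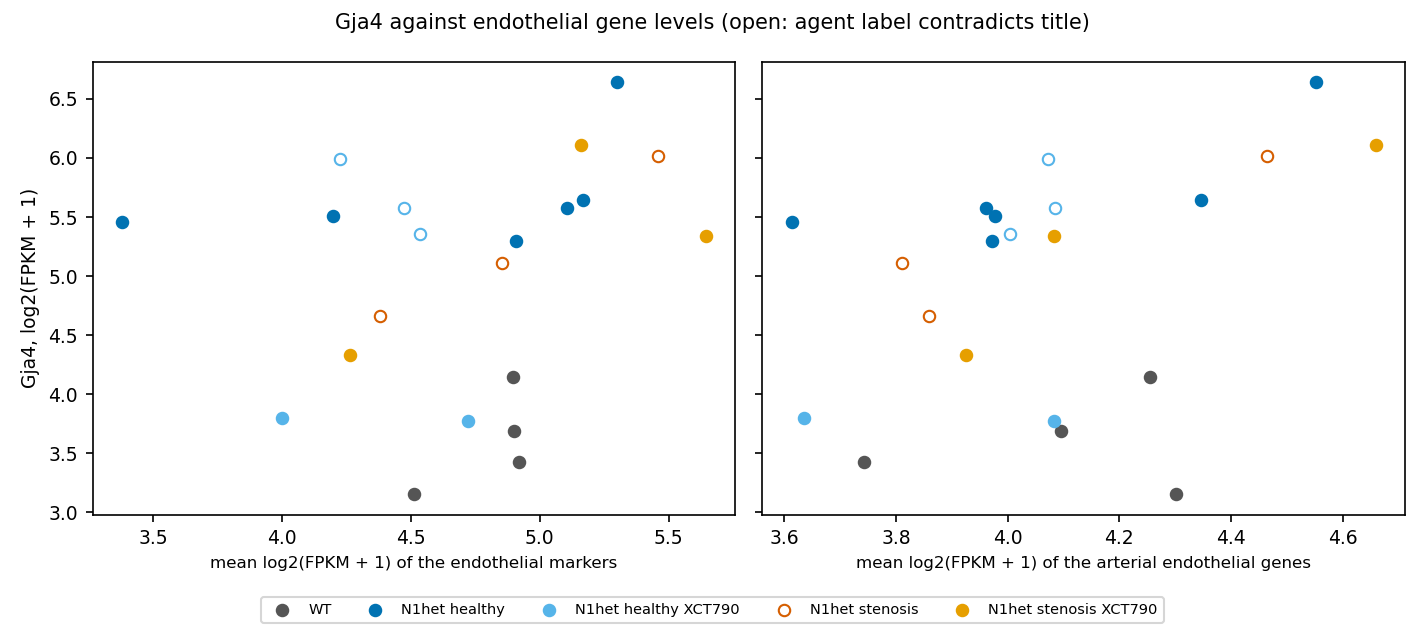
Gja4 as log2(FPKM + 1) on the vertical axis against the mean log2(FPKM + 1) of 14 endothelial markers (left) and of 22 arterial endothelial genes (right), 1 point per library, colour by group, open points where the agent label contradicts the title. The 4 WT points sit below all 6 N1het healthy points, in the values that chose the gene. The share of all genes so separated was not counted. Endothelial marker levels were 4.51 to 4.92 in WT and 3.38 to 5.30 in N1het healthy.

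In N1het healthy against WT, where limma called 0% of all genes, 5 of 14 endothelial markers were higher and 9 lower, with a median log2 difference of -0.21, and their summed level was 604 to 806 FPKM in WT and 348 to 1125 FPKM in N1het healthy. Every one of the 14 was above 0 in each WT library. Of 22 arterial endothelial genes, among them Notch ligands, receptors and targets, 10 were higher and 12 lower, with a median of -0.06 and 0 called. Over all genes tested the median was 0.09. In whole valves, a change in the share of a cell type and a change in RNA per cell cannot be told apart.

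Markers of other tissue had the following values in that contrast, where none was called. All 13 heart muscle markers were higher in N1het healthy than in WT, by a median of 1.70, with 0 called, and their summed level ranged from 36.1 to 3151 FPKM in WT and from 144 to 4862 FPKM in N1het healthy. Actn2, Mybpc3 and Myl7, which encode sarcomere proteins, were each at 0 in 1 WT library. All 8 tested melanocyte and glial markers were higher too, by a median of 0.99 with 0 called, with sums of 51.8 to 226 FPKM in WT and 117 to 552 FPKM in N1het healthy. Tyr, which encodes tyrosinase, was at 0 in 1 WT library. Smooth muscle and mural markers went the other way in 10 of 13 genes, by a median of -0.42 with 0 called, from sums of 500 to 3730 FPKM in WT to 310 to 1080 FPKM in N1het healthy. The part of these markers in the Gja4 values was not tested. The fits with marker levels given above use the values that chose the gene, so they are a description and no test of it.

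Gja5, the other arterial endothelial connexin, was scarce and was not higher in N1+/- than in WT valves by group mean. WT libraries read 5.09, 2.24, 0.10 and 3.14 FPKM, and N1het healthy had a lowest value of 0, a median of 0.474 and a highest of 3.39 FPKM. N1het healthy XCT790 read 1.75, 0.391, 7.37, 0 and 0.155 FPKM. As for Gja4, the 2 libraries whose agent label is XCT790 were the lowest, and the share of all genes so split was not counted. N1het stenosis read 0.154, 0.020 and 1.57 FPKM, and N1het stenosis XCT790 read 1.83, 2.46 and 1.44 FPKM. In 3 of the 5 groups the libraries spanned more than the group means did, and every N1+/- group overlapped WT. The group means ran from 2.64 in WT through 1.93 in N1het healthy XCT790, 1.91 in N1het stenosis XCT790 and 1.01 in N1het healthy to 0.583 in N1het stenosis, with no neighbours in that order further apart than the larger of their SDs.

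The fitted log2 differences of Gja5 were -0.82 ± 0.60 (SE) for N1het healthy against WT, described only, and -1.09 ± 0.71 (SE) for N1het stenosis against WT, adjusted p = 0.622 by limma. Under XCT790 the stenotic valves were 0.99 ± 0.76 (SE) above those given solvent, adjusted p = 1. For stenosis in solvent mice the difference was -0.27 ± 0.66 (SE), adjusted p = 0.930. At such low values the added 1 FPKM compresses differences: voom on the recovered reads put those first 3 at -2.72, -3.26 and 3.32, with neither of the tested 2 called. Over the 21 libraries, Pearson's r between Gja4 and Gja5 was -0.06, as a description of libraries that share depth and tissue makeup.

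Gja1 was abundant in every library, and no shift between groups was resolved. WT libraries read 21.3, 40.9, 20.9 and 20.97 FPKM. N1het healthy had a lowest value of 13.2, a median of 31.3 and a highest of 75.04 FPKM. N1het healthy XCT790 read 22.6, 19.0, 21.004, 33.9 and 31.6 FPKM, N1het stenosis 21.6, 33.2 and 19.2 FPKM, and N1het stenosis XCT790 39.5, 23.7 and 17.2 FPKM. The groups overlapped throughout, and their means lay between 24.6 and 33.5 FPKM. The widest spread was inside N1het healthy, where replicate 4, the deepest library, read 75.04 FPKM and replicate 5 read 13.2 FPKM.

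The fitted log2 difference of Gja1 was 0.19 ± 0.37 (SE) for N1het healthy against WT, described only. It was -0.24 ± 0.41 (SE) for stenosis in solvent mice, 95% interval -1.09 to 0.60 (limma, adjusted p = 0.901), and -0.18 ± 0.35 (SE) for XCT790 in healthy valves, 95% interval -0.91 to 0.54 (adjusted p = 1). Without N1het healthy replicate 4, all 3 changed sign, to -0.083, 0.032 and 0.089. Within N1het healthy XCT790 the libraries labelled solvent read 19.0 to 22.6 FPKM and those labelled XCT790 31.6 and 33.9 FPKM. That is the opposite direction to Gja4 and Gja5 there, and the share of all genes so split was not counted. In WT valves Gja1 exceeded Gja4 in each of the 4 libraries, while in N1het healthy Gja4 exceeded Gja1 in 5 of 6, per length.

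Gjc1 stood at a middle level and was the steadiest member. WT libraries read 6.85, 8.41, 10.3 and 5.79 FPKM, and N1het healthy ranged from 4.97 to 10.5 FPKM with a median of 7.88. N1het healthy XCT790 read 7.60, 4.00, 13.5, 4.87 and 7.75 FPKM. N1het stenosis read 5.08, 8.07 and 6.30 FPKM, and N1het stenosis XCT790 6.66, 12.4 and 3.33 FPKM. Every group overlapped every other, and the 5 means fell between 6.48 and 7.85 FPKM. The fitted log2 difference was -0.04 ± 0.34 (SE) for N1het healthy against WT, described only, -0.19 ± 0.38 (SE) for stenosis in solvent mice (limma, adjusted p = 0.920) and -0.23 ± 0.41 (SE) for N1het stenosis against WT (adjusted p = 0.887). The 95% interval of the last ran from -1.08 to 0.61.

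Gjb2 was present in some libraries and nearly absent from others of the same group. WT libraries read 10.5, 4.47, 6.97 and 0 FPKM. N1het healthy ranged from 0.032 to 6.85 FPKM with a median of 0.575, and N1het healthy XCT790 read 1.16, 0, 0.736, 0.199 and 1.66 FPKM. N1het stenosis read 2.06, 1.19 and 9.81 FPKM, and N1het stenosis XCT790 0.585, 0 and 0.833 FPKM. The WT library at 0 had no read, where 3 reads would have given 0.171 FPKM. Because of it both XCT790 groups overlapped WT, although 3 of 4 WT libraries lay above all 8 libraries of the XCT790 groups. How many of all genes show such a pattern was not counted. N1het healthy and N1het stenosis overlapped the other WT libraries too, reaching 6.85 and 9.81 FPKM.

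The fitted log2 difference of Gjb2 was -1.53 ± 0.69 (SE) for N1het healthy XCT790 against WT and -1.73 ± 0.78 (SE) for N1het stenosis XCT790 against WT. Their adjusted p-values by limma were 0.645 and 0.542, so neither passed, and they share the WT libraries. Without the 6 libraries of contradicting agent label the first was -1.40 ± 0.94 (SE), adjusted p = 0.807 by limma, and the second -1.73 ± 0.83 (SE), adjusted p = 0.671. No N1het stenosis library remains then, so differences of Gjb2, Gja5, Gja1 and Gjc1 that use that group rest on the titles, descriptions and column names. In stenotic valves Gjb2 was lower under XCT790 by title, -1.55 ± 0.84 (SE), adjusted p = 1, in a comparison where limma called 0% of all genes. Stenosis in solvent mice gave 1.12 ± 0.72 (SE), adjusted p = 0.682. Without N1het stenosis replicate 3 these differences were -0.86 and 0.43, and without replicate 2 of that group -2.01 and 1.58. The comparison of N1het healthy with WT gave -1.30 ± 0.66 (SE), described only. On the recovered reads voom put the stenotic XCT790 difference at -3.91, not called. Over the 21 libraries, Pearson's r between Gjb2 and the mean level of the epithelial and mesothelial markers was -0.22 and Spearman's rho -0.014, as a description. The summed level of those markers was 800 FPKM in N1het stenosis XCT790 replicate 1, where Gjb2 read 0.585 FPKM. It was 12.2 FPKM in N1het healthy replicate 3, where Gjb2 read 6.85 FPKM. With heart muscle markers r of Gjb2 was -0.47 (rho -0.43), and with smooth muscle and mural markers -0.45 (rho -0.52). With the other lists r lay between -0.34 (interstitial and fibroblast) and 0.22 (arterial endothelial). The part of cell makeup in the Gjb2 values was not tested.

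Gjb6 was at 0 in 17 of 21 libraries and did not reach a mean of 1 FPKM, so it entered no test. It read 0.687 FPKM from 30 reads in N1het healthy XCT790 replicate 1, 0.590 FPKM from 15 reads in replicate 4 of that group, 0.150 FPKM from 4 reads in N1het stenosis replicate 1 and 0.073 FPKM from 2 reads in N1het stenosis XCT790 replicate 1. All 10 libraries of WT and N1het healthy were at 0, where 3 reads would be 0.063 to 0.203 FPKM. A level below that could go unread at this depth, and such floors cover counting error only. No fold change is given.

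**Figure D3:**
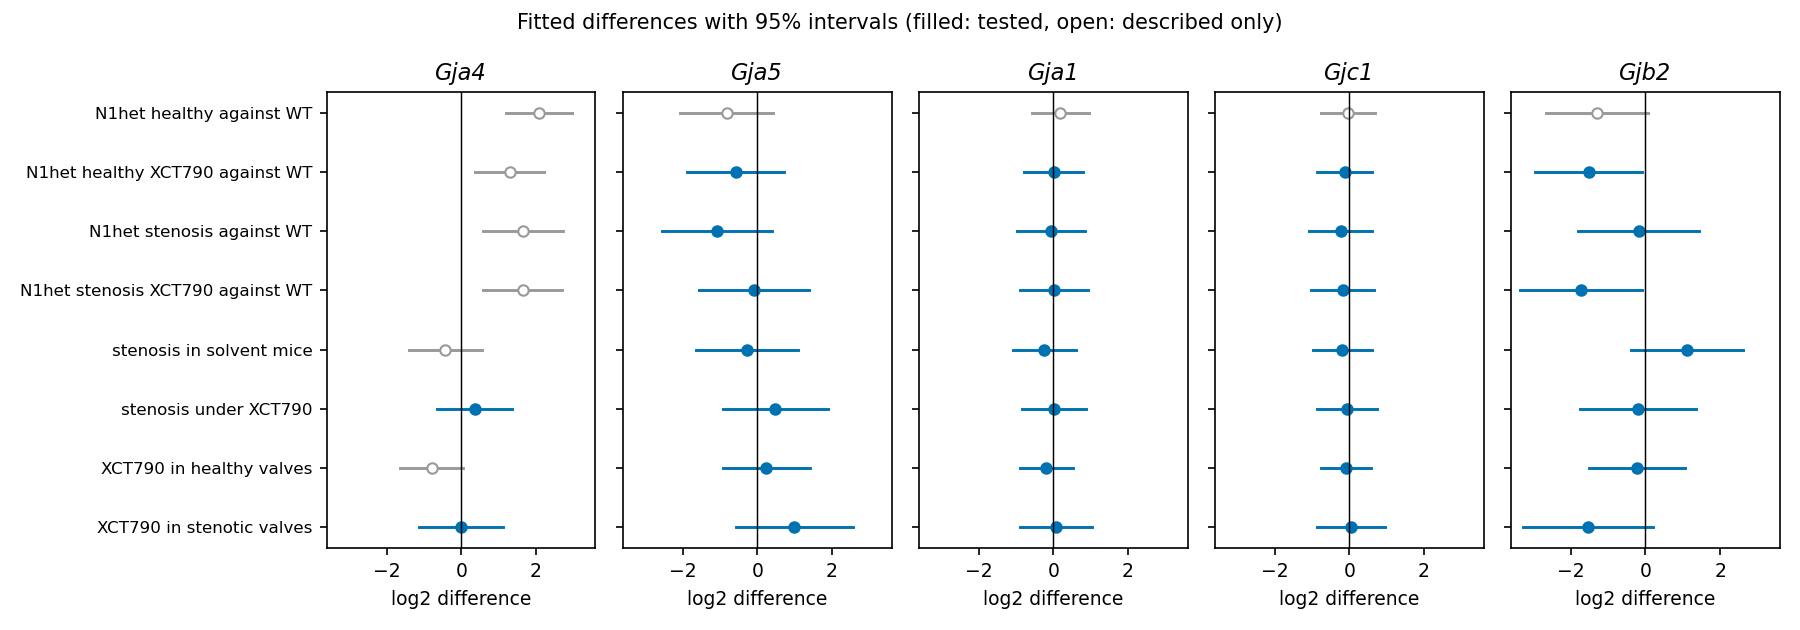
Fitted differences of the 5 connexin genes with a mean of 1 FPKM or more, on the log2(FPKM + 1) scale on the horizontal axis, for 8 comparisons on the vertical axis. Points are estimates and lines 95% intervals, filled blue where a test was made and open grey where the values chose the gene and none was made. Gja4 lies at 2.08, 1.30, 1.66 and 1.65 above WT in the 4 N1+/- groups, and the intervals of Gja1 and Gjc1 include 0 throughout.

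No connexin gene passed an adjusted p of 0.05 in any tested comparison. In stenosis in solvent mice 0 of 4 members were called, where limma called 0.0334% of all genes. In XCT790 in healthy valves 0 of 4 were called (0% of all genes), in XCT790 in stenotic valves 0 of 5 (0%), and in stenosis under XCT790 0 of 5 (0%). Averaged over both agents, stenosis had 0 of 4 members called against 0.374% of all genes, and its interaction with XCT790 0 of 4 against 0%. Against WT, N1het stenosis had 0 of 4 against 0.0334%, and both XCT790 groups 0 of 4 against 0%. Of the 38 member tests, 2 had an unadjusted p under 0.05, both Gjb2 against WT in the XCT790 groups, and voom on the recovered reads called 0 with none of 38 under 0.05 unadjusted. With so few genes called anywhere, that count is near the background and is no result about the members. The smallest adjusted p among the 38 was 0.542.

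Of 14 further connexin genes looked for, 8 were listed and 1, Gjb5, reached a mean of 1 FPKM. That mean came mainly from 44.2 FPKM (1099 reads) in N1het healthy XCT790 replicate 4 and 8.07 FPKM (216 reads) in N1het stenosis XCT790 replicate 1, with 12 libraries at 0. Gjb5 encodes a connexin known from skin and placenta. Gja3, which lies beside Gjb2 in the RefSeq gene order, reached at most 2.27 FPKM. Gjb5 and Gja3 were chosen for mention after their values were seen.

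**Figure D4:**
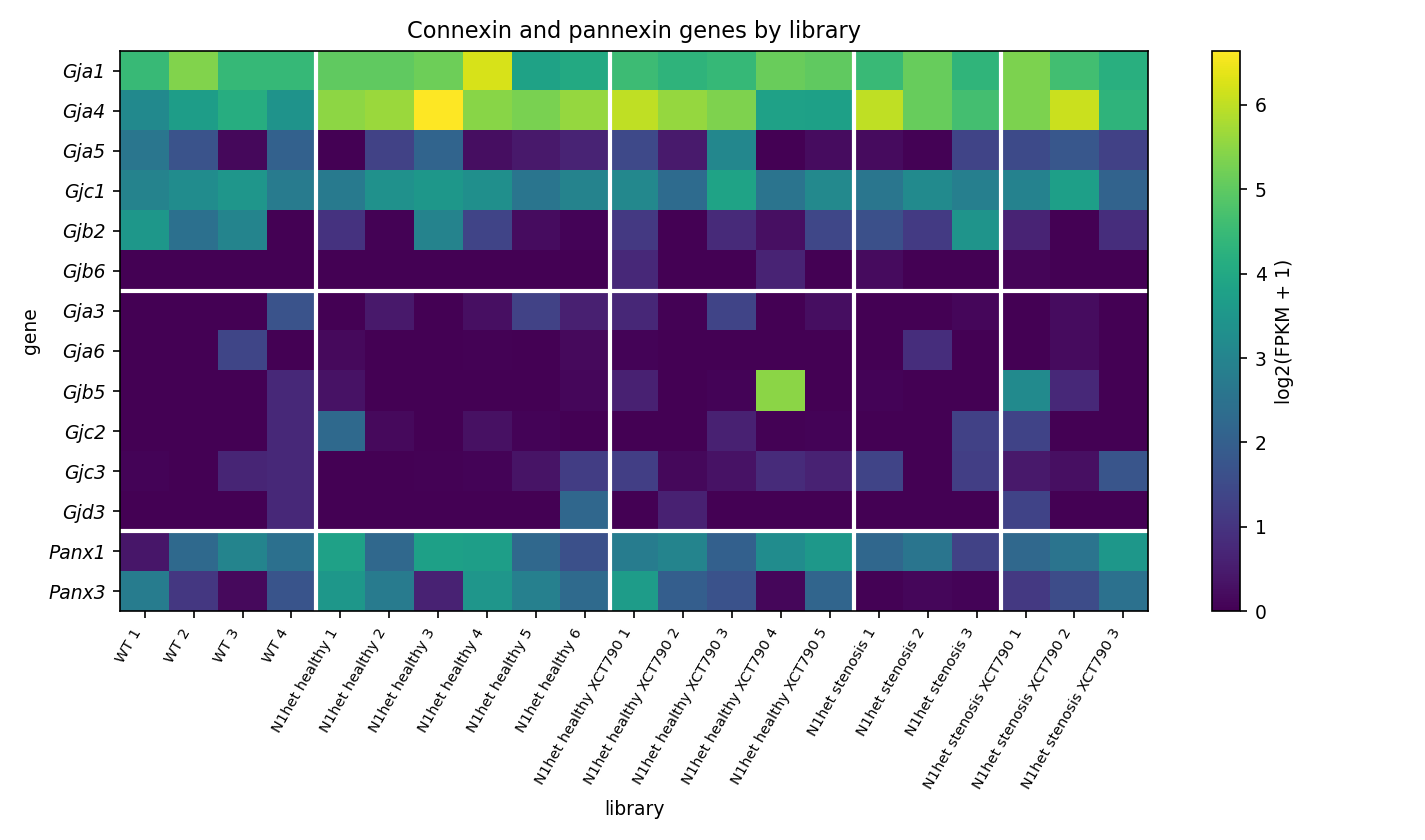
Level of 12 connexin and 2 pannexin genes (rows) in the 21 libraries (columns), as log2(FPKM + 1) by colour, with white lines between groups of libraries and between the 6 described connexins, the other connexins and the pannexins. Gja1 and Gja4 are the brightest rows, Gja4 is darker in the 4 WT columns and in N1het healthy XCT790 4 and 5, and Gjb5 is bright in N1het healthy XCT790 4.

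Pannexins form related single-membrane channels, and 2 of 3 were listed and tested. Neither was called in any comparison by limma, at medians of 1.02 for N1het healthy against WT and -1.70 for stenosis in solvent mice. In the authors' deposited table Panx3 is marked as changed in 3 of the 5 comparisons and Panx1 in none. Those 3 are N1het stenosis against WT, N1het stenosis against N1het healthy, and N1het stenosis XCT790 against N1het stenosis. They have 281, 262 and 56 of 20872 genes marked. Mean Panx3 was 2.36 FPKM in WT, 6.25 in N1het healthy and 4.09 in N1het healthy XCT790. It was 0.05 in N1het stenosis (1 to 2 reads a library) and 2.55 in N1het stenosis XCT790. Healthy groups held low libraries too. WT ran from 0.126 (3 reads) to 5.94 FPKM, N1het healthy from 0.565 to 10.5, and N1het healthy XCT790 from 0.078 (3 reads) to 11.7.

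Among 15 genes whose proteins bind, deliver, phosphorylate or degrade connexins, all were tested and 0 were called in each of the 10 comparisons. They include Tjp1, the scaffold that binds the connexin tail, and Nedd4, a ubiquitin ligase of connexins. For N1het healthy against WT, 7 were higher and 8 lower with a median of -0.01, and for stenosis in solvent mice 5 were higher and 10 lower with a median of -0.12, beside a median of -0.04 over all genes. The arterial endothelial list had 13 of 22 higher in stenosis averaged over agents, with a median of 0.16 and 0 called. By limma 8 of these 22 had an unadjusted p under 0.05, beside 1721 of all 14966 genes. Of the cell type markers, 6 were called in that comparison, where limma called 0.374% of all genes. Of 12 interstitial and fibroblast markers 3 were called lower, the extracellular matrix genes Dcn, Lum and Mfap4. Of 13 smooth muscle and mural markers 2 were called lower, the mural cell genes Abcc9 and Rgs5. Of 11 macrophage markers 1 was called higher, Lyz2, the lysozyme of macrophages. None was called in the other marker lists.

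The genes whose pattern over the 21 libraries was most like that of Gja4 were Xpnpep1, an aminopeptidase (Pearson's r = 0.79), Palm, a membrane protein of the cell cortex (0.77), Zfp410, a zinc finger protein (0.76), Uprt, a pyrimidine salvage gene (0.76), and Hsph1, a heat shock protein (0.76). Within groups, after removing group means, r was 0.77 for Xpnpep1, 0.80 for Palm, 0.71 for Zfp410, 0.57 for Uprt and 0.64 for Hsph1. The closest genes were Slc48a1, Fam70b and Flot2 for Gja1 (0.71, 0.69 and 0.66), Sele, Sypl and Creb5 for Gja5 (0.72, 0.71 and 0.69), and Drp2, Cdh11 and Naglu for Gjc1 (0.75, 0.71 and 0.68). For Gjb2 they were Btbd12, Hmgxb4 and the row named mmu-mir-27b (0.76, 0.71 and 0.66). No connexin was among another's closest genes: r between members lay between -0.26 (Gja4 with Gjb2) and 0.40 (Gja5 with Gjc1). These are descriptions over 21 libraries that share groups, depth and cell makeup.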

How the data were processed

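Whole aortic valves were lysed for RNA, which per the labels' protocols was purified (Qiagen RNeasy Micro) and amplified (NuGEN Ovation RNA-Seq System V2). HISAT2, SAMtools, Picard, FastQC and the build mm9 are named in the submitters' processing notes. Counting, annotation and strand handling were not stated, so overlapping genes could share reads. The authors deposited FPKM values per gene for 21 libraries, with group means and 0 or 1 marks of change. The marks are the authors' score per comparison. Whole reads were recovered from the FPKM steps (100% of nonzero values within 0.01 reads). Amplification makes reads dependent.

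The 14966 genes whose mean reached 1 FPKM were fitted with limma 3.58.1 (R 4.3.3, trend and robust) on log2(FPKM + 1) over 5 group means, Benjamini-Hochberg adjusted over all genes, called under 0.05. The limma procedure was tested on simulated data. Named genes were the 6 members, listed genes called in a comparison, and the 3 genes (5 for Gja4) with the highest Pearson's r among genes with means of at least 5 FPKM, model names passed over. The members and lists were chosen with earlier results of these data known. Some listed genes are not reported here. Promoter windows are from RefSeq; 5 of 6 members had one. The alternatives were 15 settings, the omission of each library, and, added after seeing the data, the omission of the 6 libraries with contradicting agent labels.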

Additional observations from a re-analysis of the deposited data

Results flagged for a closer look

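Of 16 sets of member values in groups of 4 to 6 libraries, 5 held a library far from the rest by Dixon's criterion. For normally distributed values chance meets it in about 1 in 20 sets. The criterion was applied to FPKM without a log, so that rate need not hold here. All 5 were high values. Gja4 read 98.9 FPKM in N1het healthy replicate 3, where the other 5 libraries read 38.4 to 49.0 FPKM. Gjb2 read 6.85 FPKM in the same library against 0.032 to 1.56 FPKM in the others. Gja1 read 75.04 FPKM in N1het healthy replicate 4 against 13.2 to 35.2 FPKM, and 40.9 FPKM in WT replicate 2 against 20.9 to 21.3 FPKM. Gja5 read 7.37 FPKM in N1het healthy XCT790 replicate 3 against 0 to 1.75 FPKM.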

How the results depend on the processing

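No member was called in any of the 9 tested comparisons under any alternative, and none of the 1317 alternative member fits had an adjusted p under 0.1. Of the 5 tested members, 2 were higher in N1het healthy than in WT, and 1 in the libraries outside the deep set. Leaving out 1 library moved that count both ways. Gja1 then ran from -0.083 to 0.42 and Gjc1 from -0.16 to 0.086, while Gja4 stayed higher and Gja5 and Gjb2 lower. The difference of Gja4 for XCT790 in stenotic valves changed sign to 0.02 with voom and 0.14 with sample quality weights, and ran from -0.43 to 0.46 without 1 library (upwards without N1het stenosis 1 or N1het stenosis XCT790 3). For stenosis under XCT790 it was -0.049 with the replicate number as a block, and ran from -0.069 (without N1het stenosis XCT790 2) to 0.82. Gja1 in stenosis in solvent mice became 0.13 outside the deep set, and ran from -0.47 to 0.032 without 1 library. Gja1 for XCT790 in healthy valves became 0.36 outside the deep set, 0.34 by agent label and 0.19 without the 6 contradicting libraries, and ran from -0.39 to 0.089 without 1 library. The cause was not tested. Replicate numbers did not pair the samples: same-numbered libraries deviated with a mean r of 0.01 over 34 pairs, and the replicate block changed no call of a member. Over all genes voom called 0 in stenosis in solvent mice and 3 in N1het stenosis against WT, where limma on FPKM called 5 and 5, and 84 against 56 for stenosis averaged over agents. Groups of 3 and 17 libraries without a Gjb6 read limit what depth can show.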
